A study of Mus musculus with 7 samples.

Results

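The regions described here are stretches of mouse DNA with TCF1 peaks in most TCF1 libraries and LEF1 peaks in at most 1 LEF1 library, in naive CD8 T cells. The name TCF1-held and not LEF1-held fits them only in part, since only 150 of them have no peak in any LEF1 library. The peaks of 3 TCF1 and 3 LEF1 CUT&RUN libraries on chromosomes 1 to 19 and X were merged wherever they shared at least 1 bp. A merged region was kept when at least 2 of the 3 TCF1 libraries and at most 1 of the 3 LEF1 libraries had a peak in it. Of 38215 merged regions, 738 met this rule, which is 1.93% of all, and are called members in what follows. They were chosen by the presence or absence of listed peaks in all 6 libraries, so which libraries hold them, and how strongly, is a description and not a test. Both factors held 20469 regions (53.6% of all), LEF1 and not TCF1 held 6921 (18.1%), and neither factor reached 2 libraries at 10087.

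In CUT&RUN an antibody directs a nuclease to a protein on chromatin, and the DNA released around it is sequenced. The cells of both groups were CD8 T cells of wild-type genotype with the transgenic P14 T cell receptor, taken from mouse spleen and sorted as CD8+, Ly5.1+, CD44- and CD62L+, which is the surface of T cells that have not met antigen. They differed in the antibody: anti-TCF1 in 3 libraries and anti-LEF1 in 3, on cells fixed with PFA. The input control of the series, without antibody and from a CD8+, Ly5.1-, CD44+ gate, was not analysed here. Separate animals are not named for the replicates in the labels, and the spread between libraries, on which any p-value here rests, may be technical.

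TCF1 (gene Tcf7) and LEF1 (gene Lef1) are DNA-binding proteins of the HMG box family and recognise nearly the same short sequence. Both are known for guiding T cell development and for keeping T cells in a naive or stem-like state, and both can act as the nuclear partners of beta-catenin in Wnt signalling. A gene's promoter is the DNA around its start, where RNA polymerase assembles; many promoters of widely used genes are rich in CG dinucleotides and open in most cells.

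The libraries did not contribute evenly to the 738 regions. TCF1 replicates 1, 2 and 3 had a peak in 738, 737 and 26 of them, and LEF1 replicates 1, 2 and 3 in 13, 566 and 9. The members therefore rest on TCF1 replicates 1 and 2, and most of them were also found in LEF1 replicate 2. These libraries differ in the length of their peak lists, which held 25616, 22894 and 11418 peaks for TCF1 replicates 1, 2 and 3 and 27654, 37632 and 23695 for LEF1 replicates 1, 2 and 3. TCF1 replicate 3 has the shortest list and LEF1 replicate 2 the longest. Read totals are not in the files. The commonest combination, TCF1 replicates 1 and 2 with LEF1 replicate 2, made up 548 regions (74.3% of the members), and TCF1 replicates 1 and 2 alone made up 143 (19.4%). In all, 150 members had no LEF1 peak and 25 were found in all 3 TCF1 libraries.

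**Figure D1:**
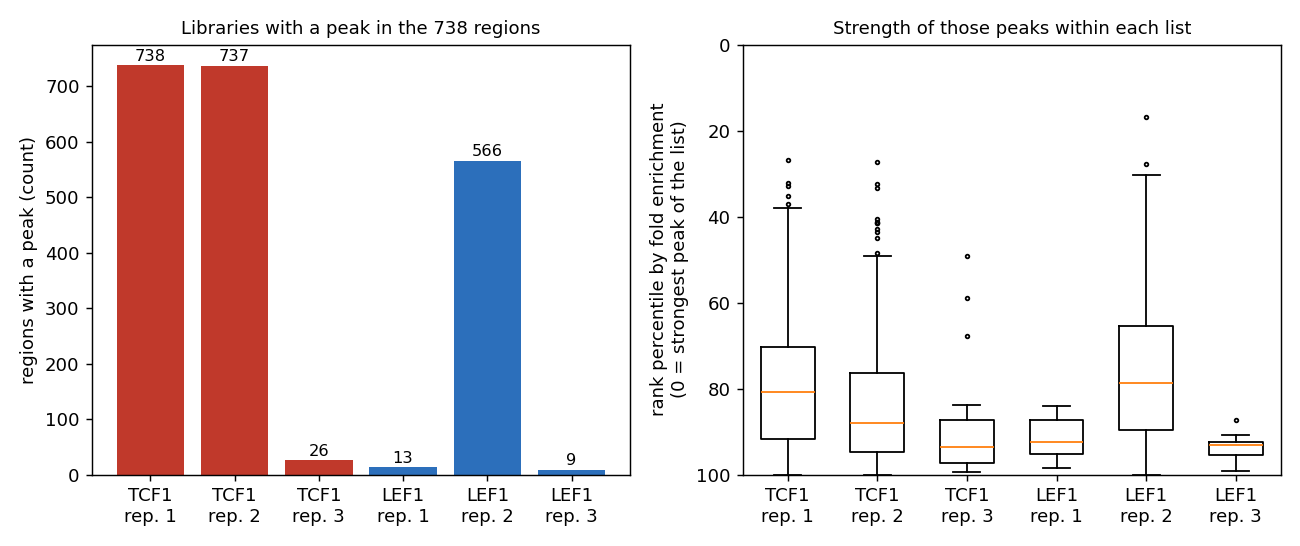
Left, the number of the 738 regions in which each library had a peak (bars, 1 per library; TCF1 in red, LEF1 in blue). Right, the rank percentile of those peaks by fold enrichment within the library's own list (0 is the strongest peak; box, quartiles; line, median; whiskers, the farthest values within 1.5 box lengths; circles, values beyond). LEF1 replicate 2 has a peak in 566 of the regions and TCF1 replicate 3 in 26, and the medians lie between 78.8 and 93.5, in the weaker part of every list.

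Promoter windows that share bases with members are shown here as sequence, in place of the regions themselves, which were not read. The windows below, from RefSeq on GRCm38.p6, run from 250 bases before a gene's start to 50 after it, 5′ to 3′ on the gene's strand. Capitals mark the TCF/LEF core CTTTGA and the ETS core CCGGAA, each on either strand. The first is Iars2, the gene of the best-ranked member (chr1:185329352-185329651, minus strand, 246 of its bases inside the member), with an ETS core and no TCF/LEF core. Mrps27 (chr13:99344536-99344835, plus strand, all 300 bases inside) belongs to the second-ranked member and has 2 ETS cores. Nrip1 (chr16:76373000-76373299, minus strand, all 300 bases inside) shows a promoter of a well-ranked member that does hold a TCF/LEF core. Ewsr1 (chr11:5099047-5099346, minus strand, 270 bases inside), a promoter found in every TCF1 and no LEF1 library, has neither core; it was chosen for display after its values were seen.
Iars2 promoter: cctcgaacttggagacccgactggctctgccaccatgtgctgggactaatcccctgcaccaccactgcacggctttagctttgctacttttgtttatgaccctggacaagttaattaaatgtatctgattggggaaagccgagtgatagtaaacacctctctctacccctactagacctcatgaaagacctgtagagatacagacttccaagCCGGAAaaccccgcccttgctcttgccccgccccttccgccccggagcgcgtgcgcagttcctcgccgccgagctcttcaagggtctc
Mrps27 promoter: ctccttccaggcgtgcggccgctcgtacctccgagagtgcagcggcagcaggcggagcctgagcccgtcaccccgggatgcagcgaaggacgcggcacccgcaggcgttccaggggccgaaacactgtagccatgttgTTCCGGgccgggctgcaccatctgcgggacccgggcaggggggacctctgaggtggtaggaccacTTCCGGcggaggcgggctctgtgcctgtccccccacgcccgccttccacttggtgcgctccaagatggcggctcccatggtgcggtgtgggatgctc
Nrip1 promoter: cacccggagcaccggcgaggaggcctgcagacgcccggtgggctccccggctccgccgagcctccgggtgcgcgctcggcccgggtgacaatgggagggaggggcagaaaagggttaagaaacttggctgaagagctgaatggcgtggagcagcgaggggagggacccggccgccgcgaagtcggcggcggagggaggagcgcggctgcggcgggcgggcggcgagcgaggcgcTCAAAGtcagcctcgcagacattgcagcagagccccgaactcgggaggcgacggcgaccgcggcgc
Ewsr1 promoter: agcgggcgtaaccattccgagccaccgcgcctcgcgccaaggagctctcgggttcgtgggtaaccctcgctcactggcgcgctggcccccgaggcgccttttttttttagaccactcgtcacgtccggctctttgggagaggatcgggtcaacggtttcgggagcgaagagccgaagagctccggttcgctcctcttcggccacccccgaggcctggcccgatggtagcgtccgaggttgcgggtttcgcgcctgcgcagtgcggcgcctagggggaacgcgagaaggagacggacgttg

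The fold enrichment of a peak, the authors' ratio of the signal at the summit to the local background, was low at the members. In TCF1 replicate 1 the member peaks had a median fold enrichment of 6.42 (range 3.30 to 18.1), in TCF1 replicate 2 of 5.82 (3.07 to 17.6), and in TCF1 replicate 3, over 26 regions, of 5.11. In LEF1 replicate 2 the 566 member peaks had a median of 6.75 and reached 27.6, so where that library had a peak it was no weaker, by this median, than those of the TCF1 libraries. Regions held by both factors had medians of 13.1, 11.9 and 9.70 in the TCF1 libraries and 13.8, 19.3 and 12.2 in the LEF1 libraries. Ranked within each list, with 0 the strongest peak, the median member lay at percentile 80.8, 87.9 and 93.5 in the TCF1 libraries, against 40.4, 45.3 and 49.0 for regions held by both. Members were also narrower, with a median merged width of 316 bp against 545 bp for regions held by both and 292 bp for those held by LEF1 and not TCF1.

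At the edge of the rule, the 570 members with 2 TCF1 libraries and 1 LEF1 library had a median fold enrichment of 6.38 in TCF1 replicate 1 (percentile 81.3), and the 1333 regions with 2 of each had 7.07 (percentile 75.5). On the TCF1 side, the 473 regions with 1 TCF1 and no LEF1 library had a median of 5.04 in TCF1 replicate 1.

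The strongest members sat at genes of quite different roles, and several of them were strong in LEF1 replicate 2 as well. Iars2, the mitochondrial isoleucyl-tRNA synthetase gene, had a member across its start (chr1:185329181-185329597) with fold enrichments of 13.8 and 17.6 in TCF1 replicates 1 and 2 and of 27.6 in LEF1 replicate 2. No peak was listed there in the other 3 libraries, so its highest value is a LEF1 value. The second-ranked member covered the starts of Mrps27, which encodes a protein of the small mitochondrial ribosomal subunit, and Ptcd2, a mitochondrial RNA-processing gene (chr13:99344467-99344995). It had 14.7, 15.5 and 9.65 in TCF1 replicates 1, 2 and 3 and 8.80 in LEF1 replicate 2. Here all 3 TCF1 values stood above the single LEF1 value.

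Dgat2, whose enzyme makes triglycerides, had a member at one end of the gene (chr7:99182667-99183098) with 18.1, 15.2 and 8.51 in TCF1 replicates 1, 2 and 3 and 6.52 in LEF1 replicate 2. A member shared by Tigd5 and the translation elongation factor gene Eef1d (chr15:75909037-75909744) had 12.5, 12.9 and 7.63 in the TCF1 libraries and 4.64 in LEF1 replicate 2. In these regions, as at Mrps27, each TCF1 value was above that of LEF1 replicate 2, the only LEF1 library with a peak. The other 8 of the 12 best-ranked members had peaks in TCF1 replicates 1 and 2 and in LEF1 replicate 2, and no others. Fbxo3, an F-box gene of a ubiquitin ligase, had 15.5 and 10.3 in TCF1 replicates 1 and 2 and 13.9 in LEF1 replicate 2. Cog2, part of a Golgi tethering complex, had 12.9 and 10.05 in those TCF1 libraries and 13.6 in LEF1 replicate 2.

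Ube2a, a ubiquitin-conjugating enzyme gene, had 10.97 and 12 in TCF1 replicates 1 and 2 and 6.83 in LEF1 replicate 2. Nrip1, a corepressor of nuclear receptors, had 13.1 and 9.81 in the TCF1 libraries and 9.53 in LEF1 replicate 2. Fkbp5, a co-chaperone of the glucocorticoid receptor, had 10.1 and 12.4 in the TCF1 libraries and 12.2 in LEF1 replicate 2. The order of LEF1 replicate 2 and TCF1 replicates 1 and 2 thus varied between regions. By fold enrichment, LEF1 replicate 2 was above both TCF1 values at Iars2 and Cog2, between them at Fbxo3 and Fkbp5, and below both at Ube2a and Nrip1. Fold enrichments of different lists need not share a scale. By rank within each list, Cog2 lay at percentile 41.9 in LEF1 replicate 2, between 41.4 and 55.0 in TCF1 replicates 1 and 2. LEF1 replicate 2 is a single library, so an order of the factors cannot be read from it. The remaining members of the 12 were at 1700029J07Rik and Ufsp2, a protease gene of the UFM1 pathway, at Mbnl3, a splicing regulator gene, and at 2310039H08Rik.

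Only 7 members were found in all 3 TCF1 libraries and in no LEF1 library, and all 7 lay within 1 kb of a gene end. At Abhd16a, a phospholipase gene (chr17:35089025-35089608), TCF1 replicates 1, 2 and 3 had fold enrichments of 14.1, 10.6 and 4.25. At Ewsr1, an RNA-binding protein gene that starts close to Rhbdd3 on the other strand (chr11:5099077-5099449), they had 11.7, 9.88 and 5.34. At Ss18l1, a chromatin-remodelling subunit gene next to the proteasome gene Psma7 (chr2:180042429-180042759), they had 7.12, 6.34 and 6.10. A member at the starts of the mitochondrial ribosomal genes Mrpl46 and Mrps11 had 7.61, 7.07 and 3.94. Noct, Pdik1l and Prkci had values of 4.79 to 8.93, and in each of the 7 regions TCF1 replicate 3 was the lowest.

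Position relative to genes was not used by the rule, and the members lay mostly at gene ends. Of the 738, 490 had an end of a protein-coding gene within 1 kb, that is 66.4% (95% exact binomial interval 62.9 to 69.8), where 24.7% of all merged regions did. The share was 30.1% (29.5 to 30.7) for regions held by both and 14.2% (13.4 to 15.0) for regions held by LEF1 and not TCF1. The intervals cover counting error only, and regions of one library are not replicates. Of the other members, 167 (22.6%) lay inside a gene farther from its ends and 81 (10.98%) outside genes. Some of those inside a gene lay across a listed start there, as at Mcl1 and Ldha. These shares were 40.1% and 29.8% for regions held by both, and 43.2% and 32.1% for all regions. Leaving out LEF1 replicate 2 gave 2146 regions, of which 50.1% lay at a gene end, and leaving out TCF1 replicate 3 gave 737, of which 66.4% did. Without TCF1 replicate 1, or without TCF1 replicate 2, 26 regions were left, of which 80.8% lay at a gene end.

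The ends in question were mostly starts. The strand of a gene came from the RefSeq promoter table, which lists no start on chromosome 18, so 713 members could be placed. That table holds 17274 protein-coding genes, against 21631 in the gene table, and lacks starts on other chromosomes too. At Mybl1, on chromosome 1, a member lay across an end of the gene, and the nearest listed start was 8445123 bp away, at Crisp4. The start of such a gene is not counted in the shares below. Of these, 438 lay within 1 kb of a start (61.4%, 57.7 to 65.0), against 27.1% (26.5 to 27.7) of regions held by both and 10.6% (9.90 to 11.4) of regions held by LEF1 and not TCF1. Over all regions the share was 21.5%. The start itself was inside the region at 43.1% of members, 21.5% of regions held by both, 4.38% of regions held by LEF1 and not TCF1 and 14.6% of all regions. Starts of neighbouring genes on opposite strands, as at Mrps27 and Ptcd2, were found at 63 of the 438 members at a start (14.4%, 11.2 to 18.0). The share was 11.4% (10.5 to 12.2) for regions held by both at a start and 10.3% for all regions at a start.

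The share at gene ends followed the number of libraries of each factor. Among regions with 2 TCF1 libraries it was 76.2% with no LEF1 library (143 regions), 63.3% with 1 (570), 40.4% with 2 (1333) and 23.6% with 3 (8184). Among regions with no TCF1 library it was 10.6% to 13.4%, whatever the number of LEF1 libraries. Regions with 1 TCF1 and no LEF1 library, which the rule leaves out, had 58.6%. The members with no LEF1 peak thus had a higher share than those with 1, and the 1333 regions with 2 libraries of each factor lay between the members and the regions found in all 3 LEF1 libraries. The 65 regions with 3 TCF1 and 2 LEF1 libraries, also just outside the rule, had 72.3% (59.8 to 82.7), as high as the 72.2% of the 18 members with 3 TCF1 libraries and 1 LEF1 library.

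**Figure D2:**
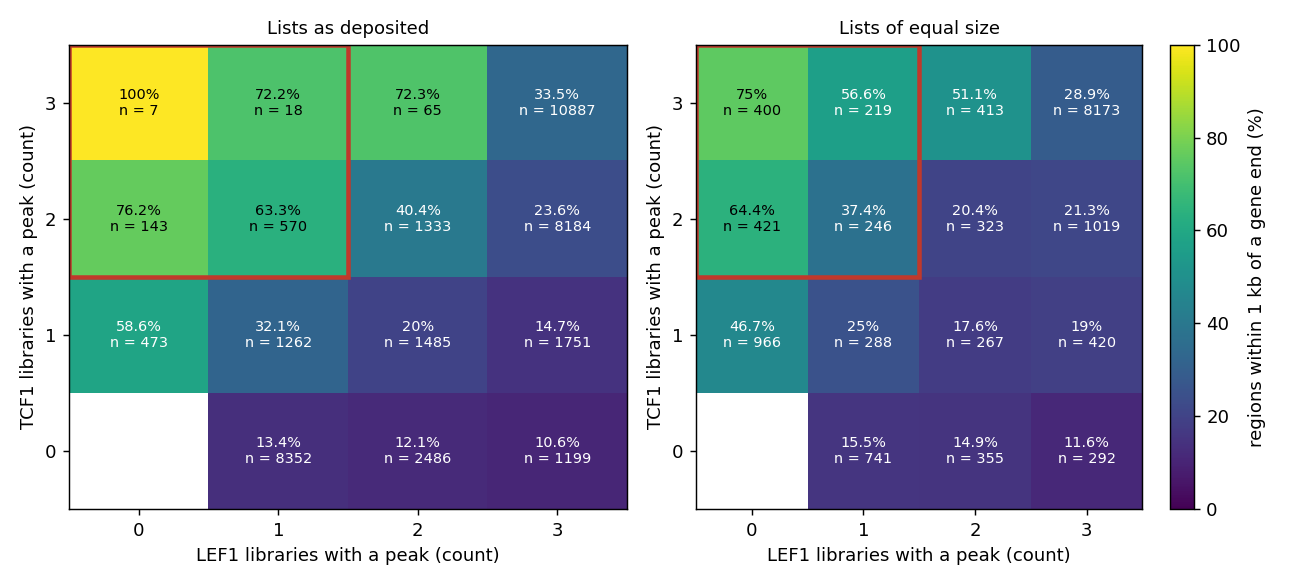
Share of merged regions within 1 kb of a gene end (colour and percent, n = regions), by the number of TCF1 libraries (vertical) and LEF1 libraries (horizontal) with a peak, for the lists as deposited (left) and cut to equal size (right). The red frame marks the members, whose shares are 63.3% to 100% on the left, against 33.5% for regions of all 6 libraries. A blank cell has no region by construction.

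Peaks of like rank in a TCF1 list differed in the same direction. Among peaks between percentiles 60 and 80 of TCF1 replicate 1, 70.2% of 258 members lay at a gene end, against 27.5% of 3677 regions held by both. Between percentiles 80 and 100 the shares were 60.9% of 391 members and 25.04% of 1937 regions held by both. In TCF1 replicate 2 they were 66.8% and 29.0% between percentiles 60 and 80, and 64.8% and 26.7% between 80 and 100. Regions held by neither factor stood between them in TCF1 replicate 1, with 41.3% of 252 between percentiles 60 and 80 and 40.6% of 1080 between 80 and 100. In TCF1 replicate 2 they had 20.9% of 43 and 34.6% of 324. The members' shares were the highest in each of these bands.

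Around starts, member summits stood close to the start itself. Of the 431 member summits within 1 kb of a start, 220 (51.0%) were within 100 bp, against 44.8% of 5106 summits of regions held by both and 37.2% of 640 of regions held by LEF1 and not TCF1. The median position was 48 bp before the start for members, 76 bp before it for regions held by both and 37.5 bp before it for regions held by LEF1 and not TCF1. Summits inside the gene's first 1 kb made up 35.5% (31.0 to 40.2) of the member summits, 26.0% (24.8 to 27.3) of those held by both and 39.2% (35.4 to 43.1) of those held by LEF1 and not TCF1.

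**Figure D3:**
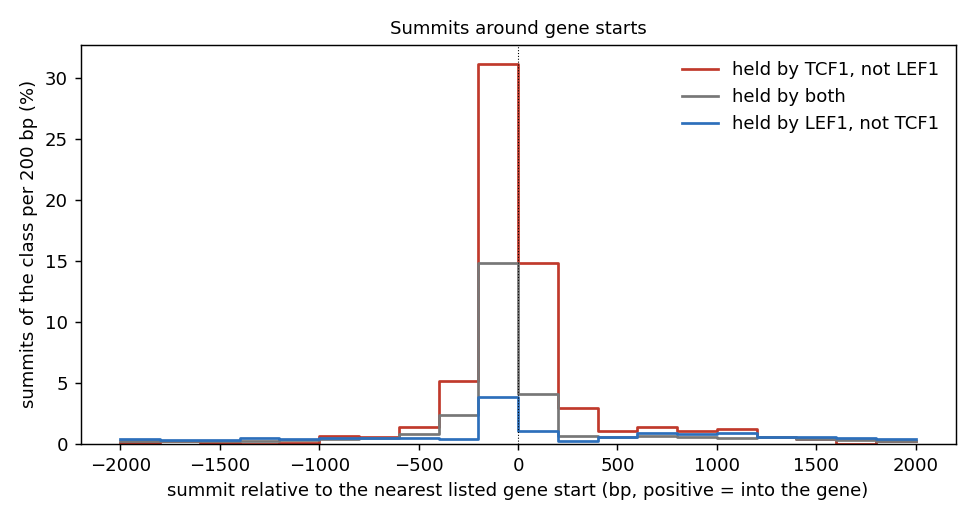
Share of the summits of each class (percent per 200 bp) by distance from the nearest listed gene start (bp, negative before the start), for regions held by TCF1 and not LEF1 (red), by both (grey) and by LEF1 and not TCF1 (blue). All 3 peak just before the start, the red line highest; its denominator is all 713 placed members.

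The promoters at the members were rich in G and C. Of all 21045 RefSeq promoter windows, 585 had a member within 1 kb of their start. Their median GC content was 65.3%, against 61% for the 6449 windows with a region held by both, 58.0% for the 551 with a region held by LEF1 and not TCF1, and 56.7% over all windows. The ratio of CG dinucleotides observed to those that base content predicts had a median of 0.863 at member windows, 0.798 at windows with a region held by both and 0.574 over all. A ratio of at least 0.6 was found in 86.8% of member windows, 79.0% of windows with a region held by both and 48.1% of all.

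Short motifs were then counted on both strands of these windows. The TCF/LEF core CTTTGA was in 7.86% of member windows (5.81 to 10.3), against 12.9% (12.1 to 13.8) of windows with a region held by both, 13.1% (10.4 to 16.2) with a region held by LEF1 and not TCF1 and 14.4% of all windows. The longer form CTTTGAT, every match of which is also a match of the core, was in 4 of the 585 member windows (0.684%), 3.05% of windows with a region held by both and 3.25% of all. Member windows are richer in G and C, and within windows of a CG ratio of at least 0.6, a limit chosen after the data were seen, the core was in 6.50% of member windows, 11.1% of windows with a region held by both and 9.35% of all. It was in 7.41% (6.64 to 8.25) of such windows with no region of these classes, which lies within the interval of the member windows (4.51 to 9.002). A match is not a binding site, and its absence says only that these letters are not in the window.

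Motifs of promoter factors showed other orders. The ETS core CCGGAA was in 36.8% of member windows (32.8 to 40.8), 32.8% (31.7 to 34.0) of windows with a region held by both and 18.9% of all. The SP/KLF motif GGGCGG was in 67.4%, 67.1% and 46.7%. The CCAAT box, CCAAT, was in 28.9% of member windows (25.2 to 32.7), 44.5% (43.3 to 45.8) of windows with a region held by both and 38.5% of all. The YY1 motif AAGATGGC was in 6.50%, 5.33% and 3.07%, the CRE motif TGACGTCA in 4.62%, 3.86% and 2.26%, and the motif of NRF1 (its 10-base palindrome) in 2.91%, 2.37% and 1.34%. The RUNX motif TGTGGT was in 10.1% of member windows, 12.2% with a region held by both and 14.7% of all. Part of these orders went with CG content. Within windows of a CG ratio of at least 0.6 the SP/KLF motif was in 71.7% of member windows (67.5 to 75.5), 74.9% with a region held by both and 74.2% of all. The RUNX motif was in 9.65% (7.22 to 12.6), 10.03% and 9.32%. For both motifs the share of all windows then lay within the members' interval. The CCAAT box was then in 27.8% of member windows, 45.3% with a region held by both and 27.3% with no region of these classes. Member windows thus had a CCAAT share near that of CG-rich windows without a region, and windows with a region held by both stood above. The ETS core was in 39.2% of member windows, 36.6% with a region held by both and 22.6% with no region of these classes.

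Members tended to lie apart from other regions. A region held by both factors was within 10 kb of 285 members (38.6%, 35.1 to 42.2), against 55.9% (55.2 to 56.6) of regions held by both, each set against the next one, and 57.4% (56.2 to 58.5) of regions held by LEF1 and not TCF1. The median distance to the nearest region held by both was 16.7 kb for members, 7.41 kb for regions held by both and 6.83 kb for regions held by LEF1 and not TCF1. Over all regions 55.1% had such a neighbour. The order was the same at gene ends alone, with 34.7% (30.5 to 39.1) of members, 42.9% (41.6 to 44.1) of regions held by both and 52.0% (48.8 to 55.1) of regions held by LEF1 and not TCF1, and away from gene ends the shares were 46.4%, 61.5% and 58.3%. Without LEF1 replicate 2 the members' share within 10 kb was 40.9%, and without TCF1 replicate 3 it was 38.5%. It was 11.5% without TCF1 replicate 1 and 15.4% without TCF1 replicate 2, over 26 regions each.

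Members rarely neighboured each other. Another member lay within 10 kb of 16 of them (2.17%), close to the 2.19% of all regions with a member that near. Only 3 genes had 2 members at their ends. At Usp9x, a ubiquitin protease gene of the X chromosome, the member at chrX:13070447-13070783 had fold enrichments of 5.14 and 6.16 in TCF1 replicates 1 and 2 and of 9.16 in LEF1 replicate 2. The member next to it, at chrX:13070928-13071571, had 8.73 and 6.85 in those TCF1 libraries and 6.61 in LEF1 replicate 2. The order of these libraries thus turned between the adjacent regions. The other 2 genes, the ankyrin repeat gene Ankrd16 and the DNA helicase gene Fbh1, share their 2 members.

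Small RNA genes were near few members. A snoRNA gene, whose RNA guides the modification of ribosomal RNA, was within 1 kb of 6 members (0.813%, 0.299 to 1.76). The share was 0.259% (0.194 to 0.339) for regions held by both and 0.215% for all regions. The snoRNA genes near members included Snord49a and Snord49b at Lrrc75a, and Snora16a, Snora44 and Snora61 at Trnau1ap. A tRNA gene was within 1 kb of 5 members (0.678%, 0.220 to 1.57). That interval includes the 0.484% of regions held by both and the 0.411% of all regions. A long noncoding RNA gene was near 86 members (11.7%), 8.66% of regions held by both and 7.58% of all regions.

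Gene functions were described over 582 protein-coding genes with a member within 1 kb of an end, 2.69% of the 21631 in the gene table. Of the 582, 96 (16.5%) also had a region held by both factors at an end and 486 did not. The lists of widely used genes had members at shares between 3.14% (vesicle traffic) and 14.7% (aminoacyl-tRNA synthetases), and the lists of T cell genes had none. The lists and their shares are given as counts, with no test, and a list's genes may also have regions held by both. Over all 21631 genes, 30.4% had a region held by both at an end, the share to set beside those of the lists below. Regions held by LEF1 and not TCF1 lay at an end of 4.89% of all genes, and the order in the lists varied. Their share was 10.4% for oxidative phosphorylation (members 4.17%) and 8.97% for mitochondrial ribosomal proteins (members 8.97%). It was 5.88% for aminoacyl-tRNA synthetases (members 14.7%). Among the lists of widely used genes, many member intervals include the 2.69% of all genes. Those for cytosolic ribosomal proteins (2.60 to 14.6) and the proteasome (2.32 to 20.0) do. So do those for oxidative phosphorylation, mitochondrial import and carriers, and translation factors. The intervals for general transcription, DNA replication and repair, cell cycle and centrosome, and vesicle traffic also include it. An excess over all genes cannot be read from the counts of these lists.

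In protein synthesis, 5 of 34 aminoacyl-tRNA synthetase genes had a member (14.7%, 4.95 to 31.1), beside 55.9% with a region held by both. Besides Iars2 these were Wars and Nars2, and Dars and Aars. Wars, for tryptophan, had fold enrichments of 10.9 and 7.43 in TCF1 replicates 1 and 2, with no LEF1 peak. Nars2, the mitochondrial enzyme for asparagine, had 7.19 and 9.77 in those libraries and 10.9 in LEF1 replicate 2. Of 86 cytosolic ribosomal protein genes, 6 had a member (6.98%), among them Rps20 and Rpl12, while 63 (73.3%) had a region held by both. Rps20 had 9.46 and 7.60 in TCF1 replicates 1 and 2 and 6.96 in LEF1 replicate 2. Translation factor genes had a member in 4 of 69 cases, which included Eef1d, the initiation factor gene Eif2a and Eif4h. Genes of tRNA and rRNA modification and RNA helicases had one in 6 of 79, led by the tRNA methyltransferase gene Trmt12.

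Mitochondrial genes made up several further lists. Of 78 mitochondrial ribosomal protein genes, 7 had a member (8.97%, 3.68 to 17.6), among them Mrps27, Mrps15, Mrpl46 and Mrps11. Of 96 oxidative phosphorylation genes, 4 did (4.17%), which included Cox5b of complex IV with 9.01 and 5.62 in TCF1 replicates 1 and 2 and 4.85 in LEF1 replicate 2, and Ndufb2 of complex I. Of 73 genes of mitochondrial import and carriers, 4 did, among them the aspartate and glutamate carrier gene Slc25a12.

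Protein turnover was represented by 4 of 48 proteasome genes (8.33%), led by Psma7 and Psmd6, and by 14 of 264 genes of ubiquitin ligases, conjugases and proteases (5.30%). In the second group Fbxo3 and Ube2a were followed by a member at ends of Fbxo44 and Fbxo6, with 10.02 and 9.09 in TCF1 replicates 1 and 2. Vesicle traffic genes had a member in 6 of 191 cases (3.14%), a share near that of all genes. They included Sec14l1, the sorting nexin gene Snx5 and Rab27a, a GTPase needed for release of cytotoxic granules, which had 4.94 and 5.65 in TCF1 replicates 1 and 2 and 7.96 in LEF1 replicate 2.

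Genes of RNA and chromatin followed. Splicing factor and snRNP genes had a member in 7 of 79 cases (8.86%), beside 79.7% with a region held by both. U2af1, which recognises the end of introns, had 9.31 and 7.94 in TCF1 replicates 1 and 2 and 8.43 in LEF1 replicate 2, and Sf3b3 and Srsf10 came next. Chromatin enzyme and remodeller genes had one in 7 of 83 (8.43%). Hdac2, a histone deacetylase gene, had 8.73 and 5.40 in TCF1 replicates 1 and 2 and no LEF1 peak. Setdb1, a methyltransferase gene for histone H3 lysine 9, had 6.09 and 5.82 in those libraries and no LEF1 peak. The acetyltransferase gene Kat2b had 5.99 and 5.92 and also 7.15 in LEF1 replicate 2.

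General transcription genes had a member in 6 of 105 cases (5.71%), led by Taf1d, Taf4 and Gtf2f1. DNA replication and repair genes had one in 4 of 90, led by the helicase gene Ercc6l, and cell cycle and centrosome genes in 5 of 131, led by Cdc73 of the Paf1 complex and by Cep68 and Cdk7. Zinc finger protein genes, the largest group with members, had one in 24 of 460 (5.22%, 3.37 to 7.66). Zfp2 had 10.02 and 7.60 in TCF1 replicates 1 and 2 and 6.96 in LEF1 replicate 2, and Zfp746 and Zfp110 were next.

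**Figure D4:**
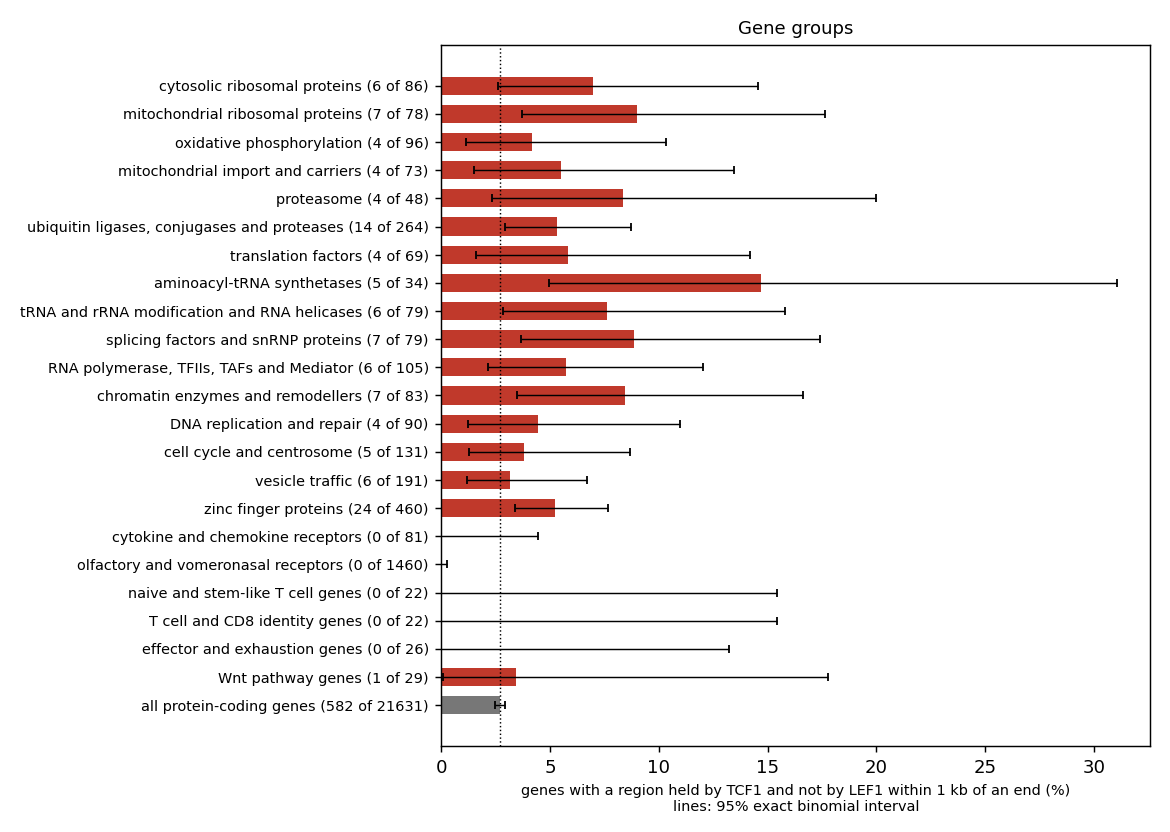
Share of the genes of each list with a member within 1 kb of an end (bars, percent; counts in the labels; lines, 95% exact binomial intervals), with all protein-coding genes in grey at the bottom and as a dotted line at 2.69%. The aminoacyl-tRNA synthetases have the highest share, 14.7%, on 34 genes, and the T cell lists have none.

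Most genes of the T cell lists had a region held by both factors at an end, and none had a member. Of all protein-coding genes, 30.4% had a region held by both at an end. Of 22 naive and stem-like T cell genes none had a member (interval 0 to 15.4%), and 19 had a region held by both at an end. Of 22 genes of T cell and CD8 identity none had a member and 17 had a region held by both, and of 26 effector and exhaustion genes none had a member and 15 had one held by both. None of 81 cytokine and chemokine receptor genes had a member (0 to 4.45%), against 36 with a region held by both. At the 2.69% of all genes these lists would hold 0.592, 0.592, 0.700 and 2.18 genes with a member, so their size does not allow an absence to be read as a difference. None of 1460 olfactory and vomeronasal receptor genes, which T cells are not known to use, had a member (0 to 0.252%), and 10 had a region held by both. As a check of the cells, regions were also counted for each marker gene, not at gene ends alone. All 6 T cell and CD8 marker genes (Cd3e, Cd3g, Cd3d, Cd8a, Cd8b1 and Trac) had regions held by both, 19 summed over the genes. Of 15 marker genes of B cells, myeloid cells and red cells, 3 had such regions, 5 summed over the genes. At an end, 2 of these 15 had one. Neither set had a member.

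Of 29 Wnt pathway genes, 1 had a member: Ctnnb1, the gene of beta-catenin. That member (chr9:120933281-120933457) was among the weakest, with fold enrichments of 3.30 and 3.42 in TCF1 replicates 1 and 2 and 5.02 in LEF1 replicate 2. The LEF1 value was the highest of the 3.

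A few members lay far from any gene. The 4 farthest were 695102 bp from Galr1, 380159 bp from Cyp7b1, 349741 bp from Adgrl2 and 319630 bp from Tbx3. Each had peaks in TCF1 replicates 1 and 2 and in LEF1 replicate 2. Their fold enrichments were 4.13 to 6.71 in the TCF1 libraries and 6.33 to 7.26 in LEF1 replicate 2, and the LEF1 fold enrichment was the higher at each. The region nearest to Tbx3 lay 1.97 kb from a region held by both, and the one nearest to Cyp7b1 lay 539 kb from one.

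Whether regions chosen in some libraries recur in others was asked by leaving out 1 TCF1 and 1 LEF1 library at a time. Regions were taken that had a peak in both other TCF1 libraries and in neither other LEF1 library, and the left-out libraries were then read. With TCF1 replicate 3 left out, the regions were not found again in it more often than in LEF1: 4.91% of 163 regions were found in TCF1 replicate 3 against 7.98% in LEF1 replicate 1, 3.36% of 715 against 79.0% in LEF1 replicate 2, and 4.40% of 159 against 5.66% in LEF1 replicate 3. With TCF1 replicate 1 or 2 left out, TCF1 replicate 3 took part in the choice and 7 to 25 regions were left. These were found in 96.0% to 100% in the left-out TCF1 library and in 0% to 72.0% in the left-out LEF1 library. These last values say nothing on recurrence, because nearly every region of the short list of TCF1 replicate 3 has a peak in both other TCF1 libraries.

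Lists of equal size gave a set that recurred, made of other regions. With the 11418 peaks of highest −log10 q from each library, the rule gave 1286 regions, with a peak in 1076, 1044 and 1071 of them in TCF1 replicates 1, 2 and 3 and in 143, 127 and 195 in LEF1 replicates 1, 2 and 3. In all 9 pairs of left-out libraries the TCF1 library was then the higher, with 71.4% to 76.8% of 605 to 696 regions found in it against 12.1% to 20.7% in the LEF1 library. Only 14 of the 738 regions (1.90%) overlapped one of the 1286 (14 regions, 1.09% of these), and 1272 of the 1286 (98.9%) counted as held by both in the full lists. The 1286 are therefore, with those exceptions, regions at which both factors have peaks. In the full lists their median rank percentiles were 37.0, 41.2 and 78.7 in TCF1 replicates 1, 2 and 3 and 37.1, 26.8 and 42.3 in LEF1 replicates 1, 2 and 3, and their median fold enrichments were 14.1, 13.0 and 6.63 in the TCF1 and 14.003, 19.9 and 11.996 in the LEF1 libraries. By these medians they were not stronger in TCF1, and cutting lists of 11418 to 37632 peaks to 1 number keeps a different share of each list.

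These 1286 regions resembled the 738 in position. Of them 61.2% lay at a gene end (58.5 to 63.9), against 16.0% of 1334 regions that LEF1 and not TCF1 held in lists of equal size. The TCF/LEF core was in 7.26% of their promoter windows, against 15.7% of windows with a region held by both, the ETS core in 38.2% against 30.0%, and the CCAAT box in 35.8% against 52.6%. Of the 1286, 25.1% lay within 10 kb of a region held by both, of which lists of equal size hold 9928 in place of 20469. The 1286 lay at an end of 15 of 86 cytosolic ribosomal protein genes (17.4%, 10.1 to 27.1), beside 4.47% of all protein-coding genes. They lay at 3 of 22 naive and stem-like genes (Bach2, Id3 and Klf3, 2.91 to 34.9%). Of 29 Wnt genes they lay at 4 (Ctnnbip1, Frat1, Fzd7 and Tle1, 3.89 to 31.7%). Both of these last intervals include the 4.47%. The T cell and CD8 identity list had 1 gene of 22 (Lck), and the effector and exhaustion list 1 of 26 (Nr4a1). Zinc finger proteins (3.91%) and mitochondrial import and carriers (4.11%) were below the 4.47%. The rule for the 738 had none of the naive and stem-like list and 1 gene of the Wnt list.

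A test that did not use the rule's regions was made on the 10887 regions with a peak in all 6 libraries, 3648 of which lay at a gene end. Within this fixed set, list length does not enter the ranks, but it enters the choice of the set. The shortest list, of TCF1 replicate 3, has a peak in 10982 regions, and the 10887 are nearly all of these. The mean rank percentile of the gene-end regions, with low values the strongest, was 54.1, 53.5 and 52.1 in TCF1 replicates 1, 2 and 3 and 58.9, 59.2 and 58.1 in LEF1 replicates 1, 2 and 3. Gene-end regions thus ranked better in every TCF1 library than in any LEF1 library. In all 6 libraries, TCF1 as well as LEF1, these means lay past the middle of the ranks, on the weaker side. The means were 53.2 ± 1.04 for TCF1 and 58.7 ± 0.558 for LEF1 (SD, n = 3 each), a difference of -5.54 percentile points, TCF1 minus LEF1 (exact permutation test over the 20 assignments of libraries, two-sided, p = 0.1). This is the smallest p that 3 against 3 libraries can give, so the design cannot pass 0.05.

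**Figure D5:**
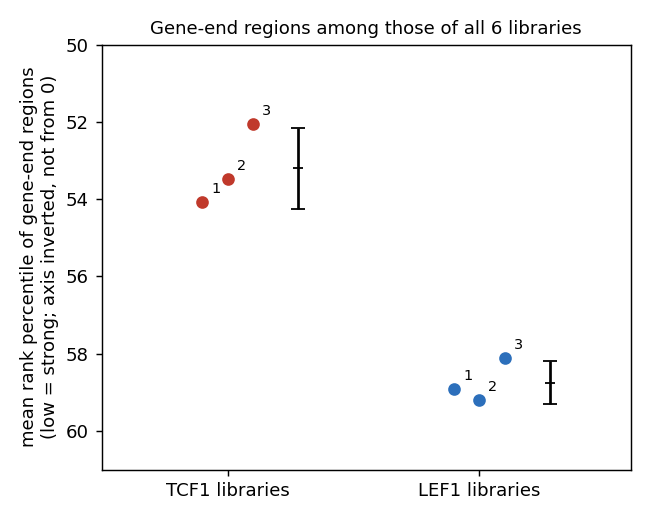
Mean rank percentile by fold enrichment of the 3648 gene-end regions among the 10887 regions found in all 6 libraries, 1 point per library with its replicate number, and the mean with its SD beside each group. The vertical axis is inverted and does not start at 0; the TCF1 points lie between 52.1 and 54.1 and the LEF1 points between 58.1 and 59.2.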

How the data were processed

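CUT&RUN libraries with an antibody to TCF1 (n = 3) or LEF1 (n = 3) were compared by their peak lists. The submitters' processing notes name MACS3 3.0.3, deepTools 3.5.1, Picard, Bowtie2 2.4.4, Trim Galore 0.6.6, FastQC 0.12.1 and GRCm38.p6, with no role or order. Options, the control used in peak calling and filters were not given in the sources used here. Each list's peaks are named for its own library, so peaks were called for each library on its own. The deposited lists give each peak's fold enrichment, a ratio, its p-value and q-value as −log10, and a score made from them; these are the authors' own values and describe or rank peaks within a list.

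From the lists, intervals with several summits were counted once, and merged as the report describes; coordinates are 1-based. Gene ends and promoter windows came from RefSeq tables of GRCm38.p6; the gene table has no strand or exons, so exons and introns were not told apart, and no genome sequence was used. Of the 582 genes with a member at an end, 484 matched the promoter table. Of the members, 713 lie on chromosomes with listed starts. Sequences of the regions themselves, beyond promoter windows, were not used here. Intervals are 95% exact binomial (Clopper-Pearson). The rank test is an exact permutation test over libraries. Python 3.11.15, numpy 2.4.6, pandas 2.3.3, scipy 1.17.1 and matplotlib 3.10.9 were used, and the code was tested on simulated data.

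Members and gene lists were chosen with earlier results of these data known, and no list was tested. Named were all members found in every TCF1 and no LEF1 library, the 12 with the best mean rank, up to 3 per list by that rank, the 3 genes with most members, the 4 members farthest from genes, and all in the T cell and Wnt lists; a few further list members and the small RNA genes were named after their values were seen. Replicate numbers occur in both groups, but nothing in the labels says that they mark a shared animal or day. Alternatives covered list size, a −log10 q of at least 3, windows of 400 bp on summits, stricter library counts, each library left out, other distances and CG-rich windows. Part of what this rule names is not reported here.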

Additional observations from a re-analysis of the deposited data

How the results depend on the processing

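The count of 738 regions depended on the libraries and on list length, while the excess at gene ends kept its direction in every setting run. Equal list sizes gave 1286 regions, 61.2% at a gene end, 45.2 percentage points above regions held by LEF1 and not TCF1 (52.2 in the lists as deposited), and 25.1% within 10 kb of a region held by both. Windows of 400 bp on summits gave 59.4% at a gene end and a difference of 43.0 points. Allowing no LEF1 library gave 150 regions, 77.3% and 63.1 points, and requiring all 3 TCF1 libraries gave 25 regions, 80.0% and 65.8 points. A −log10 q of at least 3 gave 727 regions and 67.1%. The share at a gene end was 59.6% with 500 bp, 72.5% with 2 kb and 61.4% with gene starts only. The share near a region held by both was 20.1% with 2 kb and 74.8% with 50 kb. Within CG-rich windows, a limit added once values were known, the SP/KLF motif was in 71.7% of member windows (67.5 to 75.5). It was in 74.9% of windows with a region held by both and 74.2% of all. The members' excess over all windows (67.4% against 46.7%) was not seen there.

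Leaving out 1 library at a time gave 26 to 2146 regions, 50.1% to 80.8% at a gene end, differences of 36.7 to 59.8 points and 11.5% to 41.9% within 10 kb of a region held by both. The count was 26 without TCF1 replicate 1 or without TCF1 replicate 2, since each region then needed a peak in TCF1 replicate 3. It was 1899 without LEF1 replicate 1, 2146 without LEF1 replicate 2 and 984 without LEF1 replicate 3, where both remaining LEF1 libraries had to hold a region for it to be left out. The rank difference ran between -5.98 and -4.97 with a library left out, and was -5.73 by −log10 q, -6.08 with 500 bp and -4.82 with 2 kb. With the replicate number as a block, the difference was the same -5.54 (exact sign-flip permutation over 3 pairs, two-sided, p = 0.25, the smallest that 3 pairs can give). The files give no read totals, so what sequencing depth adds to the short list of TCF1 replicate 3 or the long one of LEF1 replicate 2 was not tested.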
